A study of Mus musculus with 6 samples.

Results

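The Id proteins and the E proteins that they bind are encoded in the mouse by 7 genes, *Id1*, *Id2*, *Id3* and *Id4*, and *Tcf3*, *Tcf4* and *Tcf12*. These genes were taken by name from the 55809 genes of the deposited counts. They were followed in HC11 cells, a clonal line of mouse mammary epithelial cells, cultured in medium without BMP7 (Ctrl, 3 libraries) or in medium with BMP7 protein (BMP7, 3 libraries). The labels give no genotype, dose, time or culture for any library, and the methods describe HC11 cells that were starved before BMP7 was added for a short or a longer time without naming which was sequenced. As the labels do not say that the libraries of a group came from separate cultures, p-values measure the spread between these libraries, which may be technical. The BMP7 libraries are numbered 1, 3 and 4 in the deposited counts and the Ctrl libraries 1, 2 and 3, and these numbers are used here. The titles number the BMP7 samples 1 to 3, so that the BMP7 libraries are tied to their group and not to single titles.

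Id proteins carry a helix-loop-helix domain for dimerization but lack the basic region that contacts DNA. They pair with E proteins, the class I basic helix-loop-helix (bHLH) factors, and the resulting dimers cannot bind the E-box, CANNTG. E proteins otherwise bind E-boxes as dimers with each other or with class II bHLH factors, the tissue-restricted partners. *Id1*, *Id2* and *Id3* are known as direct targets of BMP signaling through SMAD1/5, and Id proteins are known in the mammary gland for holding back epithelial differentiation. *Tcf3* encodes E2A (the splice forms E12 and E47), *Tcf4* encodes E2-2 and *Tcf12* encodes HEB, and they are not the Wnt-pathway factors that share the letters TCF. How the balance of Id transcripts to E-protein transcripts stood with and without BMP7 is the question that these libraries can address at the level of RNA.

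The libraries held between 14607938 and 23748970 counted fragments, with both extremes among the BMP7 libraries. All 12 epithelial markers listed had counts, and *Krt14*, *Krt5*, *Cdh1* and *Epcam* were abundant, while *Krt19* was at or below 0.356 CPM (fragments of the gene relative to the TMM-scaled library total) in every library. *Krt14* and *Trp63*, known from basal cells, were higher with BMP7 by 0.43 and 0.64 on the log2 scale, and *Epcam*, *Cdh1*, *Krt18* and *Cldn3* were lower (log2 fold changes of -0.42, -0.27, -0.67 and -0.31). The basal keratin gene *Krt5* and the luminal keratin gene *Krt8* did not pass (-0.03 and 0.09, adjusted p = 0.807 and 0.479 from edgeR). *Krt7*, *Cldn4* and *Cldn7* did not pass either, with log2 fold changes of -0.22, -0.68 and -0.52. *Cldn4* and *Cldn7* were at or below 3.23 CPM in every library. These genes thus had the same sign as the markers called lower, which *Krt8* did not, and *Krt5* did not rise with *Krt14* and *Trp63*. The part of the called marker shifts in the Id levels was not tested. BMP7 replicates 3 and 4 stood apart from the other libraries in the summed level of 13 adipocyte markers, at 96.0 and 82.7 CPM, where BMP7 replicate 1 had 35.8 and the Ctrl libraries had 22.7 to 34.4. In the test of all libraries 8 of the adipocyte markers were called higher with BMP7 and 0 lower. BMP7 replicates 3 and 4 also stood apart in the sum of 14 macrophage markers, at 32.5 and 31.8 CPM, where BMP7 replicate 1 had 59.8 and the Ctrl libraries had 58.0 to 62.9. Much of this lay in *Lyz2*, at 6.76 and 6.94 CPM there, 22.5 in BMP7 replicate 1 and 25.5 to 26.6 in Ctrl. *Lyz2*, *Ptprc*, *Cd14* and *Itgam* were called lower. *Cd68* went the other way without passing, at 12.4 to 15.6 CPM with BMP7 and 10.9 to 11.6 in Ctrl, as did *Cd74*. The 8 endothelial markers summed to 28.3 to 32.0 CPM with BMP7 and 15.1 to 17.3 in Ctrl, with *Pecam1* making up most and *Erg* next, whose highest Ctrl library had 1.47 CPM and whose BMP7 libraries ranged from 3.31 to 5.42. Both passed the test, and the other 6 endothelial markers were at or below 0.492 CPM in every library. The sum of 8 fibroblast markers lay between 115 and 126 CPM in Ctrl and between 102.5 and 119.6 CPM with BMP7, while *Col1a2*, *Col3a1* and *Dcn* were called higher and *Col1a1* lower. Fewer cells of a type and less RNA per cell cannot be told apart in these bulk libraries.

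Promoter sequences are shown for the Id genes because they moved in the same direction, and for *Tcf3* as the most abundant E-protein gene per length. RefSeq promoters on GRCm38.p6 were matched for 5 of the 7 genes, all but *Id1* and *Tcf4*. The 250 bases before the annotated start were read 5′ to 3′ on the strand of the gene. Capitals mark the letters GGCGCC, which reads the same on both strands, GTCTG or its reverse complement CAGAC, and the E-box CANNTG, and none of the marked matches overlapped another. GGCGCC and GTCTG are letters known from SMAD-binding elements of BMP target genes.
*Id2*, chr12:25096093-25096342, minus strand: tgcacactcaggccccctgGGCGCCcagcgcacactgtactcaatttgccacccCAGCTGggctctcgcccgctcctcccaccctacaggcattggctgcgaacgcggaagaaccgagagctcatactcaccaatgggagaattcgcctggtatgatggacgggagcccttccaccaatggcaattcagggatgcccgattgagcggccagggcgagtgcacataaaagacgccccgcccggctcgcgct
*Id3*, chr4:136143572-136143821, plus strand: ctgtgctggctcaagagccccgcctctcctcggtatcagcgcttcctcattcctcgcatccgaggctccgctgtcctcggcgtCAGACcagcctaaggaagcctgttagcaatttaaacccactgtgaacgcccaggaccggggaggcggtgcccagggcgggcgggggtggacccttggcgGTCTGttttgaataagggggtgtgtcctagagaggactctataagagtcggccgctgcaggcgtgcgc
*Id4*, chr13:48260866-48261115, plus strand: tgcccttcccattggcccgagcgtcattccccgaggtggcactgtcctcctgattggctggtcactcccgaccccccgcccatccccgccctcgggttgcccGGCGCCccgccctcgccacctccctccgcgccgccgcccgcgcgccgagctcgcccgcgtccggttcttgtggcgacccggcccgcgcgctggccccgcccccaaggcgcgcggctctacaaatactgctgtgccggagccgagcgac
*Tcf3*, chr10:80433636-80433885, minus strand: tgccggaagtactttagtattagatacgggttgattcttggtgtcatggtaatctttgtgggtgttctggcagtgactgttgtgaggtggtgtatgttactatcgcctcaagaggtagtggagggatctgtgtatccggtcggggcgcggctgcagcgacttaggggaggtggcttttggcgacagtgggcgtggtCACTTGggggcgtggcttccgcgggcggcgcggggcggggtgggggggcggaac
*Id2* held GGCGCC at position -231 from the start and an E-box at -196. *Id4* held GGCGCC at -148. *Id3* held no GGCGCC in this window, but CAGAC at -167 and GTCTG at -68. *Tcf3* held an E-box at -54 and neither of the other motifs. *Tcf12*, whose sequences are not shown, held an E-box at -240 in its promoter 1. Its promoter 2 held an E-box at -149 and CAGAC at -50, and its promoter 3 held no match. GTCTG or its reverse complement was thus not limited to the Id genes. Of 32851 RefSeq promoters of the same length, 9.59% held GGCGCC, 42.2% held GTCTG on either strand and 66.2% held an E-box. Matches other than GGCGCC are thus common. The promoters counted were not matched to those shown for base content, on which the share with GGCGCC can depend. The matches are a description of letters and not of bound sites.

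All 4 Id genes were higher with BMP7 and none of the 3 E-protein genes passed the test. Among the 15733 genes tested with edgeR, 5.99% were higher and 5.38% lower, where a call needed an adjusted p below 0.05 together with more than a 1.2-fold difference. With library totals in place of TMM the split of calls was 718 higher and 1474 lower, in place of 942 and 846. No BMP7 library overlapped a Ctrl library for any Id gene, a separation that 29.8% of all genes tested showed in either direction and 14.8% with BMP7 above Ctrl.

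**Figure D1:**
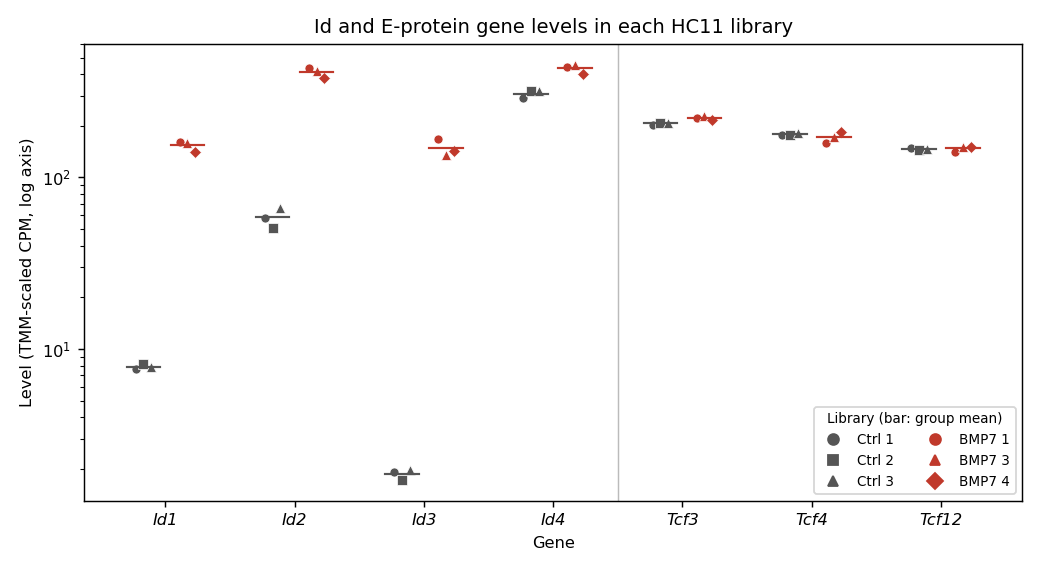
Level of each Id and E-protein gene in each library, in TMM-scaled CPM on a log axis, with Ctrl libraries in grey, BMP7 libraries in red, symbols for library numbers and bars for group means. The groups are apart for all 4 Id genes, most for *Id3* and least for *Id4*, and lie close together for the E-protein genes.

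*Id3*, on chromosome 4 of the mm39 annotation (135870808 to 135873066, plus strand), encodes the Id protein with the lowest starting level here. It was counted at 40, 35 and 40 fragments in Ctrl replicates 1, 2 and 3 and at 2402, 3060 and 2602 in BMP7 replicates 1, 3 and 4. These are 1.93, 1.72 and 1.96 CPM in Ctrl and 167, 136 and 143 CPM with BMP7. Every Ctrl library was low and every BMP7 library was high. The difference was 79.3-fold, or 6.31 on the log2 scale (95% interval 6.06 to 6.56, adjusted p = 2.93e-15 by the quasi-likelihood test of edgeR). By its log2 fold change *Id3* ranked 5 among all 15733 genes tested.

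*Id1*, on chromosome 2 (152578171 to 152579330, plus strand), is the Id gene most often used as a readout of BMP signaling. Its levels were 7.61, 8.21 and 7.87 CPM in Ctrl and 162, 158 and 142 CPM with BMP7. The spread within each group was small against the difference, which was 19.5-fold (log2 fold change 4.28, 95% interval 4.11 to 4.46, adjusted p = 3.25e-15 from edgeR). *Id1* ranked 10 by log2 fold change.

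*Id2*, on chromosome 12 (25143798 to 25147139, minus strand), is known in the mammary gland for its part in lobuloalveolar development. Its levels were 58.1, 50.9 and 66.6 CPM in Ctrl and 436, 418.5 and 381.5 CPM with BMP7. It varied more among the Ctrl libraries than *Id1* did, yet its lowest BMP7 library was far above its highest Ctrl library. The difference was 7.04-fold (log2 fold change 2.82, 95% interval 2.63 to 3.00, adjusted p = 2.41e-12 from edgeR) and *Id2* ranked 29.

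*Id4*, on chromosome 13 (48414704 to 48419502, plus strand), encodes the member of the family that is known to be expressed in basal mammary cells. It was already abundant without BMP7, at 291, 317 and 317 CPM in Ctrl, and reached 440, 454 and 402 CPM with BMP7. The BMP7 libraries were all higher than the Ctrl libraries, but the difference of 1.40-fold (log2 fold change 0.49, standard error 0.07, 95% interval 0.35 to 0.63) was small beside those of the other Id genes. It passed the test (adjusted p = 6.32e-05 from edgeR) and ranked 1018 by log2 fold change. Of its exon length 4.44% overlaps A330033J07Rik and Gm49291, and fragments on shared exons were not counted for either gene, whereas no exon base of the other 6 genes overlaps another gene. A match of 110 bases at 95% identity or more joined *Id4* to Gm49291 among the transcripts of GENCODE vM21, and 1 of 107 bases joined *Tcf12* to Gm34885.

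The rises of the Id genes were unequal. In each of the 6 pairs of Id genes the log2 ratio of the levels of the pair differed between the groups without overlap. The log2 ratio of *Id1* to *Id3* changed by -2.03 with BMP7 (standard error 0.12), that of *Id1* to *Id2* by 1.46 (0.13) and that of *Id2* to *Id4* by 2.34 (0.12). The order of the rises was thus *Id3*, *Id1*, *Id2* and *Id4*. Over the 9 pairs compared, these 6 and 3 pairs of E-protein genes, the exact two-sided permutation p of each Id pair was 0.1, the smallest that 3 libraries against 3 allow (0.113 after Benjamini-Hochberg adjustment), so that the design cannot bring a single pair below 0.05.

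**Figure D2:**
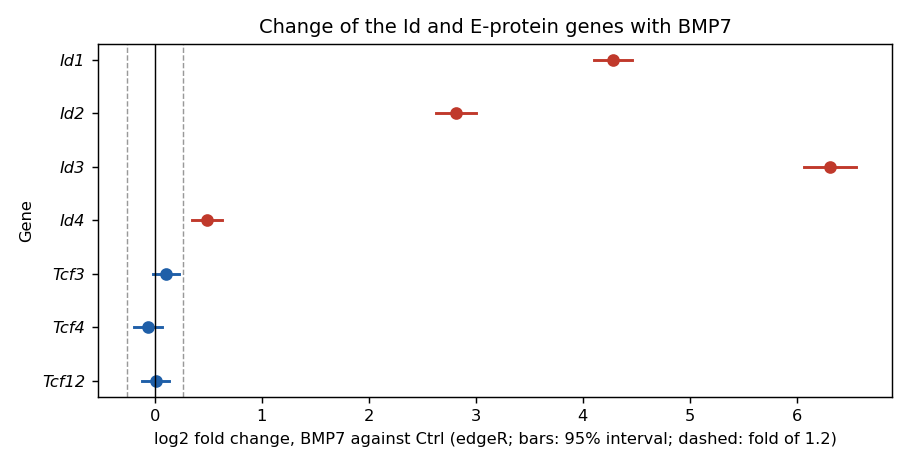
log2 fold change of BMP7 against Ctrl for each gene from edgeR, with Id genes in red and E-protein genes in blue, bars for the 95% interval and dashed lines at a fold change of 1.2 in either direction. The intervals of the 4 Id genes lie wholly above the upper dashed line and those of the 3 E-protein genes lie between the dashed lines.

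None of the E-protein genes passed the test. *Tcf3*, on chromosome 10 (80245348 to 80269481, minus strand), was measured at 204, 206 and 209 CPM in Ctrl and at 223, 228 and 215 CPM with BMP7. Its BMP7 libraries all lay above its Ctrl libraries, by 1.08-fold, which did not pass the test (log2 fold change 0.11, 95% interval -0.01 to 0.23, adjusted p = 0.257 from edgeR) and was 0.03 on the log2 scale with library totals in place of TMM. *Tcf12*, on chromosome 9 (71749970 to 72019153, minus strand), was at 148, 146 and 147 CPM in Ctrl and at 141, 151 and 151 CPM with BMP7. Its groups overlapped, with a log2 fold change of 0.01 (95% interval -0.11 to 0.13, adjusted p = 0.947 from edgeR) whose sign turned under other scalings and with BMP7 replicate 3 or 4 left out. *Tcf4*, on chromosome 18 (69476427 to 69822150, plus strand), was at 177, 177 and 183 CPM in Ctrl and at 159, 173 and 183 CPM with BMP7. Its lowest value was that of BMP7 replicate 1 and its highest that of BMP7 replicate 4, and its log2 fold change was -0.06 (95% interval -0.20 to 0.07, adjusted p = 0.596 from edgeR). None of the 3 intervals reached a fold change of 1.2 in either direction, a log2 value of 0.263. The log2 ratio of *Tcf3* to *Tcf4* was higher with BMP7 by 0.17 (standard error 0.08) and that of *Tcf3* to *Tcf12* by 0.10 (0.05), each without overlap and with the same exact p of 0.1. Counts per gene do not separate the splice forms of these genes, such as E12 and E47 of *Tcf3*.

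Levels can be compared between genes only per length. On the scale of CPM per kilobase of the deposited exon length, *Id4* was the highest of the 7 genes in Ctrl at 80.1 ± 3.99 (SD, n = 3 libraries), followed by *Tcf3* at 51.1 ± 0.676, *Id2* at 24.0 ± 3.23, *Tcf12* at 9.46 ± 0.0879, *Id1* at 6.81 ± 0.259, *Tcf4* at 6.54 ± 0.114 and *Id3* at 1.04 ± 0.0717. In that order *Id1* and *Tcf4* were the neighbours whose libraries overlapped. With BMP7 the order was *Id2* at 169 ± 11.4, *Id1* at 133 ± 9.27, *Id4* at 112 ± 6.97, *Id3* at 83.2 ± 9.17, *Tcf3* at 54.9 ± 1.55, *Tcf12* at 9.51 ± 0.384 and *Tcf4* at 6.27 ± 0.450. No neighbours in that order overlapped, and all 4 Id genes stood above all 3 E-protein genes. The deposited exon length sums the exons of all transcripts, 27382 bases for *Tcf4* and 15529 for *Tcf12* and 1160 for *Id1*, and a level per length rests on it.

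The make-up of the Id transcripts changed with BMP7. *Id4* made up 71.6% ± 2.15 of the summed per-length Id level in Ctrl and 22.6% ± 0.891 with BMP7 (SD, n = 3 libraries each). The share of *Id1* was 6.09% ± 0.296 in Ctrl and 26.7% ± 0.411 with BMP7. That of *Id3* was 0.932% ± 0.0713 and 16.7% ± 1.40, and that of *Id2* was 21.4% ± 2.36 and 34.0% ± 0.213. Among the E-protein genes *Tcf3* held 76.1% ± 0.238 of the summed level in Ctrl and 77.7% ± 1.17 with BMP7. These shares rest on the length used. Of the summed CPM without length scaling, *Id4* made up 81.9% in Ctrl and 37.7% with BMP7, *Id1* 2.10% and 13.4%, and *Tcf3* 38.8% and 41.0% of the E-protein genes.

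**Figure D3:**
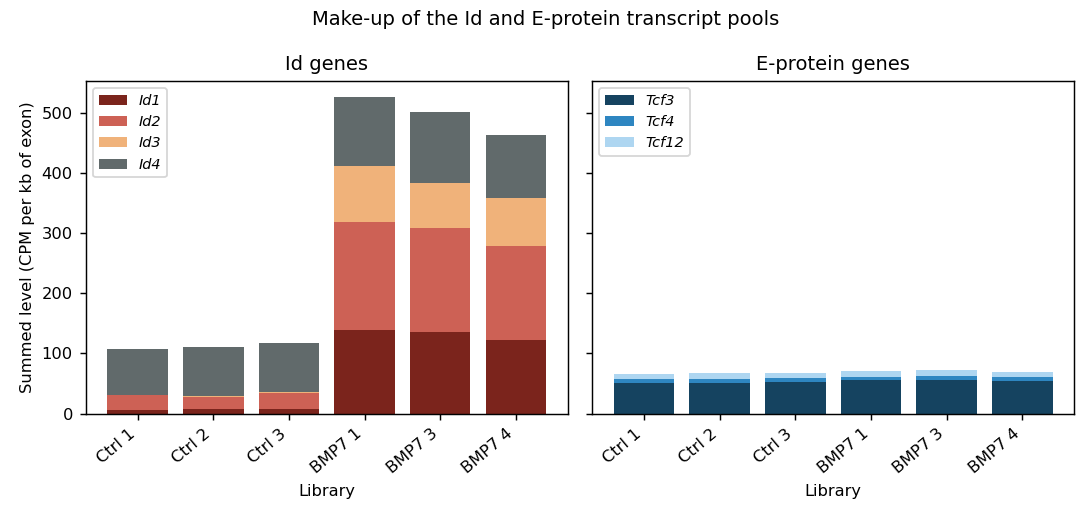
Summed level of the Id genes (left) and of the E-protein genes (right) in each library, in CPM per kilobase of exon, stacked by gene. The Id bars stand at 107 to 118 in Ctrl, mostly *Id4*, and at 463 to 526 with BMP7 with all 4 genes visible, while the E-protein bars stay between 66.4 and 72.4.

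The summed Id level was 4.44 times as high with BMP7 and the summed E-protein level 1.05 times. The direction of the small E-protein difference depended on the scaling, since in TPM, which carries no TMM factor, its mean was 183 in Ctrl and 179 with BMP7 and the groups overlapped. The summed Id level was 107, 111 and 118 CPM per kilobase in Ctrl and 526, 502 and 463 with BMP7. The summed E-protein level was 66.4, 67.0 and 67.9 in Ctrl and 70.0, 72.4 and 69.7 with BMP7. The ratio of the sums was therefore 1.61, 1.66 and 1.73 in Ctrl and 7.52, 6.93 and 6.64 with BMP7, a mean 4.21 times as high with BMP7. The BMP7 library with the most Id transcript, replicate 1, had neither the most nor the least E-protein transcript, and within neither group are 3 libraries enough to relate the sums. No p is given for these sums, which join genes chosen for this description.

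The size of the ratio rested on the length used. With the longest coding transcript of each gene in GENCODE vM21 in place of the deposited length, an alternative chosen after seeing the data, the ratio was 0.999 to 1.08 in Ctrl and 4.50 to 5.21 with BMP7. Without any scaling by length it was 0.677 to 0.731 in Ctrl and 1.94 to 2.31 with BMP7. The groups were apart under each of these choices, but whether Id transcripts outnumber E-protein transcripts in Ctrl depended on the choice. RNA levels do not give the amounts of the proteins, and Id proteins are known to be short-lived.

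**Figure D4:**
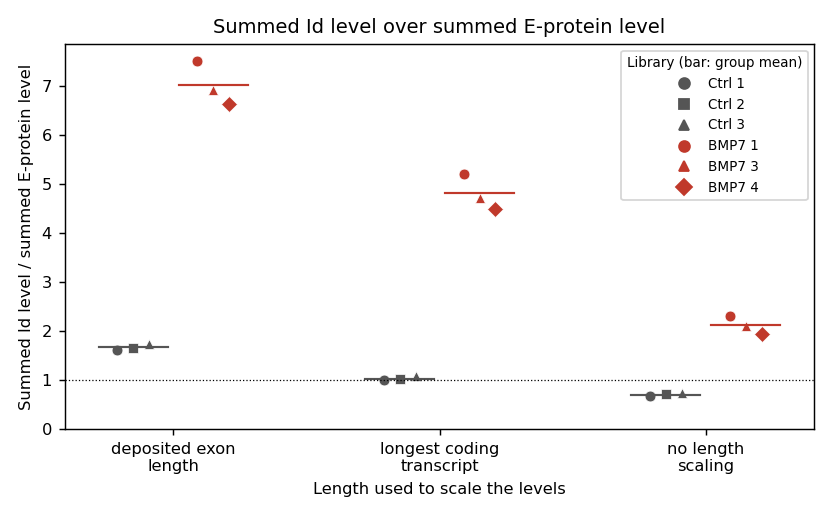
Summed Id level over summed E-protein level in each library under 3 ways of scaling by length, with Ctrl in grey, BMP7 in red, bars for group means and a dotted line at 1. The BMP7 libraries lie above the Ctrl libraries in each, at 6.64 to 7.52 against 1.61 to 1.73 with the deposited length.

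The Id results were as large without the BMP7 libraries that stood apart. With BMP7 replicate 1 alone against the 3 Ctrl libraries, chosen after seeing the data, the log2 fold changes were 4.36 for *Id1*, 2.90 for *Id2*, 6.48 for *Id3* and 0.51 for *Id4*, each past the thresholds, and the lone library is there assumed to vary like Ctrl. The same fit gave 0.11 for *Tcf3*, -0.17 for *Tcf4* and -0.06 for *Tcf12*, none past them. Without BMP7 replicate 1 the log2 fold changes of the Id genes were 4.24, 2.77, 6.22 and 0.47. The endothelial sum also moved with BMP7, with 2 of 8 markers called higher, *Pecam1* and *Erg*, and its part in the Id levels was not tested. With library totals in place of TMM, also chosen after seeing the data, the median log2 fold change of all genes was -0.08 and *Id4* stood at 0.41, still past the thresholds.

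Genes with patterns like those of the Id genes were sought among the 14101 genes that averaged 1 CPM or more, by the root mean square difference over the 6 libraries of log2 CPM centred on Ctrl. The nearest to *Id2* was *Smad7*, an inhibitory SMAD, at a difference of 0.119, followed by *Hoxc9* (0.170) and *Dlx1* (0.242), both homeobox genes. The nearest to *Id1* were *Cxcl12* (0.435), a chemokine gene, *Tmem151a* (0.515) and *Cpm* (0.556), which encodes carboxypeptidase M. The nearest to *Id3* were *Myoc* (0.392), *Atoh8* (0.708) and *Tnn* (0.830), which were all under 0.3 CPM in every Ctrl library. These 3 genes averaged 1 CPM through their BMP7 libraries alone. Their differences and their order lean on the prior count of 2 and are no measure of likeness to *Id3*. The nearest to *Id4* were *Rcn2* (0.0291), *Ywhag* (0.0352) and *Dbnl* (0.0399), in a range of small changes where many genes lie close together. No Id gene was among the 3 nearest of another. Of the ranks between Id genes, the closest were *Id1* at 5 among the neighbours of *Id3*, at a difference of 1.40, and *Id2* at 12 among those of *Id1*, at 1.03. The others ranked farther, such as *Id3* at 25 for *Id1*, *Id1* at 88 for *Id2* and *Id3* at 13642 for *Id2*. A rank also depends on how many genes lie in a range of change, so that it is no measure of likeness between Id genes. By the difference itself *Id1* and *Id2* were the nearest pair of Id genes, at 1.03. For *Id4* the other Id genes ranked 14076 to 14099.

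Genes known to bind Id proteins or to act on their stability were read against all genes. Of 23 listed, 20 were tested, and 3 were higher, a share of 15%, and none lower, against 11.4% of all genes tested that passed in either direction. By adjusted p alone 7 of the 20 passed (35%, against 13.7% of all genes), and 10 of the 20 did not overlap between groups (50%, against 29.8%). Their median log2 fold change was -0.00, beside -0.01 for all genes. *Hes1*, a repressor that Id proteins are known to bind, was at 18.2, 21.0 and 17.9 CPM in Ctrl and at 30.2, 25.1 and 25.1 CPM with BMP7 (log2 fold change 0.48, adjusted p = 0.00343 from edgeR). The ETS factors *Ets2* and *Elk3* were higher by 0.33 and 0.30 on the log2 scale, and both fell below the fold threshold with library totals in place of TMM. *Usp1*, which encodes a deubiquitinase that stabilizes Id proteins, had 146 ± 5.91 CPM in Ctrl and 133 ± 8.38 CPM with BMP7 (SD, n = 3 libraries each) and did not pass (adjusted p = 0.199 from edgeR). *Smurf2*, a ubiquitin ligase, had an adjusted p of 0.00736 from edgeR, but its log2 fold change of 0.26 stayed under the fold threshold. It passed with DESeq2, with DESeq2's size factors, without Ctrl replicate 3 and without BMP7 replicate 1. *Elk4*, a further ETS factor, also stayed under the fold threshold (log2 fold change -0.25, adjusted p = 0.0253 from edgeR). *Elk4* passed as lower with upper-quartile scaling, without Ctrl replicate 1, without BMP7 replicate 4 and with library totals.

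Class II bHLH factors, the other partners of E proteins, were mostly below the limit of the test. Of 47 listed, 22 had any count and 4 were tested. *Atoh8*, known as a target of BMP signaling, was at 4, 1 and 0 fragments in Ctrl and at 104, 165 and 132 with BMP7, and so passed the filter on low counts through the BMP7 libraries alone. Its log2 fold change of 6.38 (95% interval 5.57 to 7.19) is imprecise, as it rests on few Ctrl fragments, and was 7.88 without Ctrl replicate 1 and 5.83 without Ctrl replicate 3. *Twist1* at 6.60 CPM in Ctrl and 6.20 with BMP7, *Scx* at 8.97 and 9.05, and *Lyl1* at 0.781 and 0.628 did not pass, with adjusted p of 0.769, 0.982 and 0.731 from edgeR. *Myod1*, the myogenic factor, was at 0 fragments in every Ctrl library and in BMP7 replicate 1, and at 6 and 8 in BMP7 replicates 3 and 4, the libraries with the most adipocyte transcript, and it was not tested.

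The genes listed as the Hes and Hey family, a further bHLH group that here takes in *Bhlhe40* and *Bhlhe41*, moved in both directions. Of 12 listed, 5 were tested. *Hes1* and *Hey1*, 2 genes, were higher, and *Bhlhe41* and *Hes6*, 2 genes, were lower, against 5.99% and 5.38% of all genes tested. *Hey1* was at 17.2, 17.5 and 20.3 CPM in Ctrl and at 56.2, 66.3 and 53.9 CPM with BMP7, a 3.21-fold difference (log2 fold change 1.68, adjusted p = 2.51e-09 from edgeR). *Bhlhe41* fell from 30.0 ± 2.28 to 18.9 ± 0.240 CPM (log2 fold change -0.67) and *Hes6* fell from 18.0 ± 0.479 to 13.5 ± 0.783 CPM (log2 fold change -0.41). With BMP7 replicate 1 as the lone BMP7 library the log2 fold change of *Hes6* was -0.37, with an adjusted p of 0.128 from edgeR. *Bhlhe40* had 154 CPM in Ctrl and 175 with BMP7 and did not pass (adjusted p = 0.0619 from edgeR).

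Of 7 genes listed as reported targets of Id or E proteins, 5 were tested. Of these 1 was higher and 2 lower, a share of 60%, against 11.4% of all genes tested that passed in either direction. *Cdkn1a*, the cyclin-dependent kinase inhibitor p21 that E2A activates and Id proteins oppose, rose from 73.9 ± 3.37 to 127 ± 14.6 CPM (log2 fold change 0.78, adjusted p = 2.20e-06 from edgeR). *Thbs1*, which encodes thrombospondin and is repressed by Id1 in other cells, fell from 89.6 ± 8.53 to 50.2 ± 2.66 CPM (log2 fold change -0.83, adjusted p = 8.54e-07 from edgeR). *Cdh1*, which encodes E-cadherin and is repressed by E proteins, fell from 983 ± 11.6 to 818 ± 27.6 CPM. Its log2 fold change of -0.27 lay at the threshold and dropped under it without Ctrl replicate 2 or 3 or BMP7 replicate 1, with DESeq2 and with DESeq2's size factors. *Cdkn2b* and *Cdkn2a*, further kinase inhibitors, did not pass, at 17.9 and 51.4 CPM in Ctrl and 21.0 and 52.6 CPM with BMP7. *Csn2*, the beta-casein gene, had 1 fragment in all libraries together and *Cdkn1c* at most 9 in any library, and neither was tested.

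**Figure D5:**
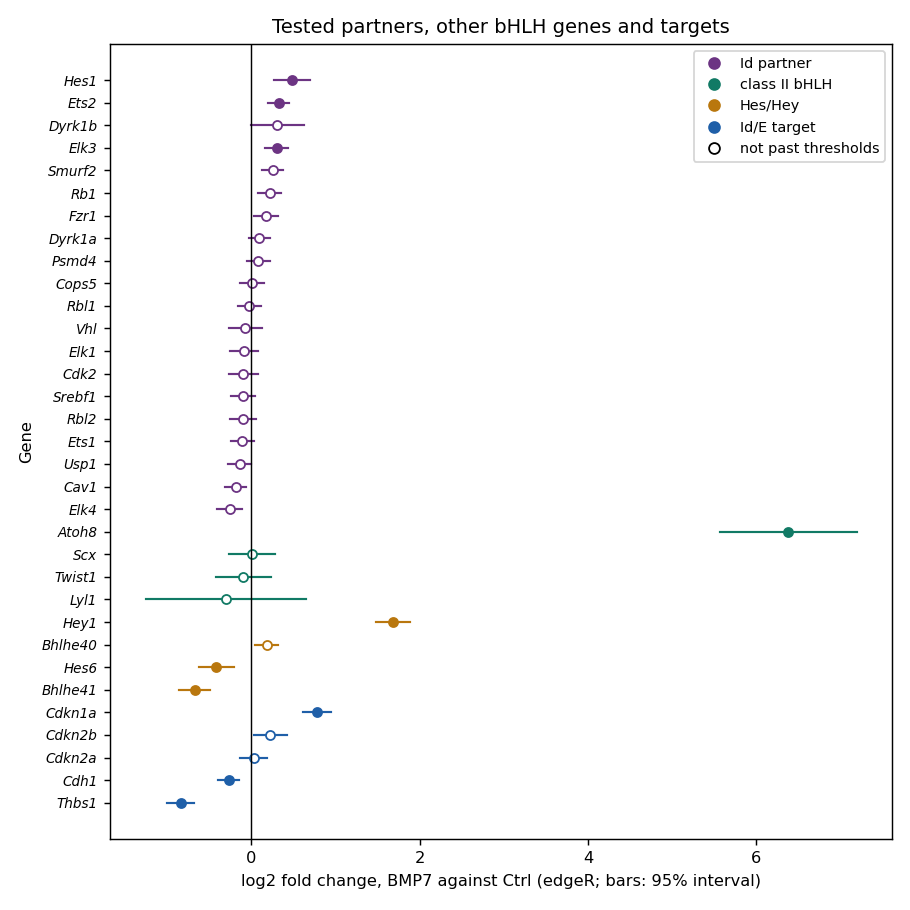
log2 fold change of BMP7 against Ctrl for each tested Id partner, class II bHLH, Hes or Hey, and target gene from edgeR, with bars for the 95% interval, filled points past the thresholds and open points not past them. Most Id partners lie near 0, *Atoh8* stands far to the right and the Hes and Hey genes lie on both sides.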

How the data were processed

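Poly(A) RNA of HC11 cells was sequenced in 3 Ctrl and 3 BMP7 libraries. The authors aligned read pairs with subjunc (Subread 2.0.3 per the processing notes) and deposited fragment counts per gene name from featureCounts 2.0.1, without normalization, strand or fragments shared between places or genes. The methods name mm10 and the header of the deposited counts an mm39 annotation. The authors also deposited summed exon lengths in bases. Ctrl libraries differed by a chi-square per degree of freedom of 5.31 to 11.2 and BMP7 libraries by 6.64 to 12.9, more than sampling noise.

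Counts were tested in R 4.3.3 with edgeR 4.0.16 (filter by expression, 15733 genes, TMM, quasi-likelihood test, Benjamini-Hochberg adjustment, 4 residual degrees of freedom). A call needed an adjusted p below 0.05 and a difference of more than 1.2-fold. The test was tried on simulated data. CPM carry no prior count, and permutation tests and nearest patterns used log2 values, the latter with a prior count of 2. Standard errors of edgeR fold changes were the log2 fold change over the square root of F. Those of the log2 ratios of gene pairs came from the variances of the libraries within each group. Levels per length divided TMM-scaled CPM by the deposited exon length, and the ratio of sums is the same as from TPM. Near copies were searched with BLAST 2.17.0. DESeq2 1.42.0, other scalings, filters and fold thresholds, each library left out and a replicate block were the alternatives. The members and gene lists were chosen with earlier results of these data known. Named genes are the members, the listed genes past the thresholds and the 3 nearest patterns of each Id gene; other listed genes were named after their values were seen. Counts and intervals cover the spread of these libraries only.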

Additional observations from a re-analysis of the deposited data

How the results depend on the processing

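Over 12 other settings (another tool, other scalings, filters, each library left out and the replicate block), *Id1* ranged from 4.24 to 4.37 in log2 fold change, *Id2* from 2.72 to 2.92, *Id3* from 6.22 to 6.37 and *Id4* from 0.45 to 0.56, all past the thresholds, with the highest adjusted p of *Id4* at 0.000986. *Tcf3* ranged from 0.09 to 0.13 and *Tcf4* from -0.12 to -0.01 and neither passed. *Tcf12* turned from 0.01 to -0.0094 with upper-quartile scaling and -0.0154 with the replicate block, and ranged from -0.0083 to 0.0408 with 1 library left out. In settings outside these 12, chosen after seeing the data, *Tcf12* was at -0.059 without BMP7 replicates 3 and 4 and -0.0651 with library totals. The number of genes past the thresholds was 364 of 15733 tested at a fold change of 2. With 1 library left out it ranged from 1302 of 16083 tested to 1966 of 16139. At a fold change of 2 the counts were 0 of 20 Id partners, 1 of 5 Hes and Hey genes and 0 of 5 targets. Of the 20 Id partners tested, 7 passed by adjusted p alone, 5 higher and 2 lower (13.7% of all genes passed that rule). With 1 library left out 3 to 5 passed the thresholds, with *Rb1* and *Smurf2* added without BMP7 replicate 1. Class II bHLH genes past the thresholds were 2 with no filter on low counts, *Atoh8* and *Myod1*, and 0 with at least 10 counts in every library, which drops *Atoh8*. In each fit with 1 library left out, 2 to 3 of 5 targets, 4 of 5 Hes and Hey genes and 1 of 4 class II genes passed. In the same fits 4 of 4 Id genes and 0 of 3 E-protein genes passed. The ratio of summed levels was 4.21 times as high with BMP7. It was 3.00 times as high without length scaling, 3.54 times without *Id2* and 4.06 to 4.33 times with 1 library left out. In settings chosen after seeing the data it was 4.65 times with the longest coding transcripts and 4.50 times without BMP7 replicates 3 and 4. The replicate block used the numbers 1 and 3 that both groups share, and libraries sharing them had correlated deviations of -0.0142 and 0.116, so that they were treated as unpaired. The check rests on 2 pairs, and the titles number the BMP7 samples differently. *Id3* rests on 35 to 40 fragments per Ctrl library, which limits the precision of its fold.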
